A study of Mus musculus with 24 samples.

Results

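Intermediate filaments of muscle, precursor cells, the nucleus and neurons were followed through 2 mouse cell lines grown alone or together. The group was set by name and holds 10 genes: Des, Sync and Synm of muscle, Nes and Vim of precursor cells, Lmna of the nuclear lamina, and Prph, Nefl, Nefm and Ina of neurons. Of 15839 genes with reads in either line these are 10, of which 9 had reads in C2C12 and 6 in NSC34. C2C12 is a mouse myoblast line that fuses into muscle fibres in culture, and NSC34 is a hybrid line used as a model of motor neurons, both labelled wild type. The groups were C2C12 co-cultured with NSC34 for 3 days, C2C12 control without co-culture, NSC34 co-cultured with C2C12 for 3 days, and NSC34 control without co-culture, with 6 libraries each and 24 in all. Each line is a single culture model without the other cells of muscle or nerve, and neither the way the lines were separated for extraction nor whether replicates were separate cultures is stated. RNA was read on a Nanopore MinION, and the deposited values are raw read counts per Ensembl transcript, summed here per gene.

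Intermediate filaments are rope-like polymers of the cytoplasm and, for the lamins, of the inner face of the nuclear envelope. Muscle precursors carry vimentin and nestin, and desmin becomes the chief filament as they mature into fibres, where it ties neighbouring sarcomeres to each other and to the membrane. Neurons build theirs from neurofilament subunits, alpha-internexin and peripherin, the last being typical of neurons whose axons leave the central nervous system, motor neurons among them.

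Depth set what could be seen. The C2C12 libraries held 143502 to 547071 reads in co-culture and 121154 to 658075 in control, the NSC34 libraries 2807 to 30314 in co-culture and 88 to 4624 in control. A gene with 0 reads may have made up to 1.66 counts of all reads scaled to a fixed library total (CPM) over the co-cultured C2C12 libraries, 2.004 CPM over the C2C12 controls, 54.5 CPM over the co-cultured NSC34 libraries and 189 CPM over the NSC34 controls, taking 3 reads as the limit. All 12 markers of myoblasts and early muscle had reads in C2C12, and the summed level was 12104 ± 672 CPM in co-culture and 10444 ± 1013 CPM in control (SD, n = 6 each). In NSC34 only Chrna1, Tnnt1 and Myh3 of those 12 had reads. Of 12 neuronal markers 8 had NSC34 reads, summing to 1954 ± 727 CPM in co-culture and 1728 ± 1203 CPM in control. Stmn2, Map2, Rbfox3 and Dcx were at 0 there. The deeper C2C12 libraries held reads of 11 of the same 12, at a lower sum of 192 ± 16.7 CPM in co-culture and 219 ± 32.0 CPM in control. Having reads was thus not particular to NSC34. Of 8 motor neuron and cholinergic markers only Isl1 and Chat had reads in NSC34, and Mnx1, Isl2, Lhx3, Slc18a3, Slc5a7 and Chodl were at 0, so the motor neuron label rests on few markers at this depth.

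After 3 days with NSC34 cells, C2C12 held less nestin RNA. Vimentin was also lower and desmin higher on average, but neither passed the test across all genes. Lamin RNA differed by less than its spread. In NSC34 only peripherin had more than a handful of reads, 19 in co-culture and 6 in control, and its level there was far above that of C2C12 in both conditions. Together the 10 genes took 2385 ± 263 CPM in co-cultured C2C12 and 2476 ± 254 CPM in control C2C12, a difference smaller than the spread. In bulk RNA, a change in the share of cells and a change in RNA per cell cannot be told apart.

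Of the 10 genes, 4 (Nes, Des, Vim and Lmna) had enough C2C12 reads to be tested. With edgeR's quasi-likelihood test on 2570 genes and Benjamini-Hochberg adjustment, Nes alone of these 4 passed an adjusted p of 0.05, falling in co-culture, and none rose. Over all tested genes 37 passed, or 1.44%, of which 21 rose (0.817%) and 16 fell (0.623%). The groups did not overlap for Nes, again 1 of the 4, and for 39 of all tested genes (1.52%). The median log2 fold change over all tested genes was 0.00.

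**Figure D1:**
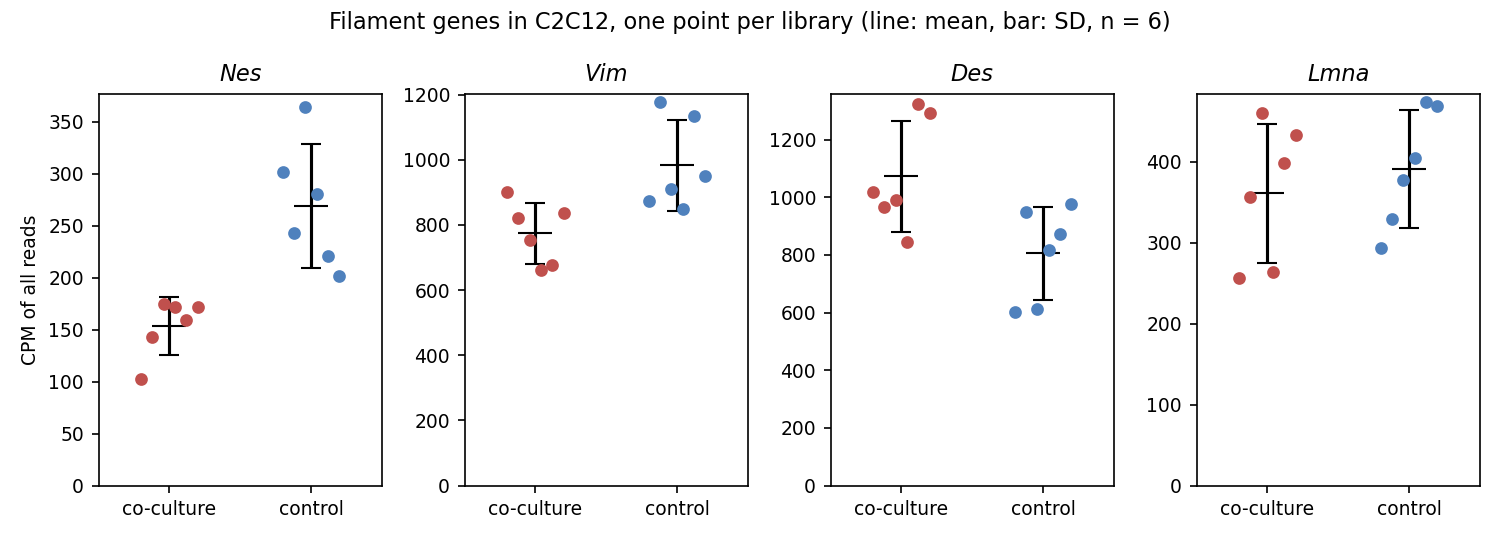
Levels of the 4 tested filament genes in CPM of all reads, 1 point per C2C12 library, co-culture left and control right in each panel, with line and bar for mean and SD (n = 6). For Nes every co-cultured library lies at or under 174 CPM and every control at or above 201.8 CPM, while the groups overlap for Vim, Des and Lmna.

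Des (ENSMUSG00000026208, chromosome 1, 75360329 to 75368579, plus strand, GRCm38) encodes desmin. Its level ran over 845, 1003 and 1324 CPM (lowest, median and highest) in co-cultured C2C12, against 604, 845 and 976 CPM in C2C12 controls. Co-cultured libraries 1, 3, 5 and 6 lay above every control, and co-cultured libraries 2 and 4 lay within the control range. The mean was 1072 ± 192 CPM in co-culture and 805 ± 163 CPM in control (SD, n = 6 each), a log2 fold change of 0.41 (SE 0.127, 95% interval 0.15 to 0.68) that did not pass (adjusted p = 0.0952 by edgeR). When genes with low counts were kept and 15439 genes were tested, it was 0.50 and passed (adjusted p = 0.00193 by edgeR), as did 106 genes in all (0.687%). The log2 fold changes of Nes (-0.73), Vim (-0.25) and Lmna (-0.02) were also higher in that fit than with the filter. Des passed in no other setting, nor with any library left out (adjusted p 0.0635 to 0.280 by edgeR). Of 10 tested genes of the myoblast and early muscle list 2 rose, Myog (the transcription factor that starts differentiation) by 0.43 and Tnnt1 (slow troponin T) by 0.45 on the log2 scale (adjusted p = 0.0457 and 0.0139 by edgeR), 0 fell and 8 did not pass, where 0.817% of all tested genes rose. Their part in the level of Des was not tested.

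The promoter of Des is shown because myogenic transcription factors are known to act on it. It covers chr1:75360042-75360341 (plus strand, GRCm38.p6, RefSeq start site), 250 bases before to 50 after the start. Capitals mark matches to the E-box CANNTG, the site bound by MyoD and myogenin, and to the MEF2 box CTANNNNTAG, searched on both strands.
Des promoter: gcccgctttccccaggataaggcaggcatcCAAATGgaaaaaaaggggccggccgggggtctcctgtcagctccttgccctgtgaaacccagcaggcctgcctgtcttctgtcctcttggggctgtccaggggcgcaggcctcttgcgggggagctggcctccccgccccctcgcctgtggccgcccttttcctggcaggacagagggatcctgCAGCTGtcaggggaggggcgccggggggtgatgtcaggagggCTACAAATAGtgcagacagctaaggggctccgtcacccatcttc
The E-box matches begin 220 and 36 bases before the start site, the nearer one being CAGCTG, the form preferred by MyoD and counted within CANNTG. The MEF2 box match begins at base 7 after this RefSeq start. Des-201, which took nearly all Des reads, starts at 75360329 in GENCODE M21, further along the window. Counted from that start, every match lies before it. Of 32817 mouse promoters of the same length in the table, 72.3% hold CANNTG, 16.3% CAGCTG and 3.69% CTANNNNTAG, so the shorter motif is common and the MEF2 box is not. The matches are a description of these letters, and binding was not measured.

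Sync, syncoilin, is a muscle protein that partners desmin near the membrane and the neuromuscular junction. It had 10 reads over the co-cultured C2C12 libraries and 27 over the controls, or 5.52 CPM (95% interval 2.65 to 10.1) and 18.03 CPM (11.9 to 26.2). Level by library ran over 0, 6.79 and 7.46 CPM in co-culture, against 0, 18.9 and 31.8 CPM in control, so the groups overlap through co-culture 5 and control 6, each at 0. It was under the filter, and without a filter the 95% interval of its log2 fold change was -2.61 to -0.39 (adjusted p = 0.331 by edgeR). Annotated Sync exons share 782 bases with those of Rbbp4 on the other strand, which had 890 C2C12 reads, and with no strand setting known Sync reads remain uncertain. Synm, synemin, which links desmin filaments to the costameres of the membrane, had 0 reads in co-cultured C2C12 and 1 in control.

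Nes (ENSMUSG00000004891, chromosome 3, 87971078 to 87980451, plus strand) encodes nestin, a long filament protein of dividing precursors that needs a partner such as vimentin or desmin to polymerise and that persists in muscle at the neuromuscular and myotendinous junctions. It ran over 103, 166 and 174 CPM in co-cultured C2C12, against 201.8, 262 and 364 CPM in C2C12 controls. All 6 co-cultured libraries lay below all 6 controls, and co-culture 1 was the lowest. The mean was 154 ± 27.7 CPM in co-culture and 269 ± 59.6 CPM in control (SD, n = 6 each), and the log2 fold change was -0.82 (SE 0.165, 95% interval -1.17 to -0.48, adjusted p = 0.0139 by edgeR), which put it in place 12 of 2570 genes by p. Without control 3 the adjusted p was 0.0528 and without co-culture 2 it was 0.0520, so the call rests on these libraries although the direction does not. Nes-201, which took 98.5 ± 1.82% of Nes reads in co-culture and 98.0 ± 3.13% in control, is 6126 bases long. With the trend of level on transcript length removed in each library, the log2 fold change of Nes was -0.67 (adjusted p = 0.0195 by edgeR).

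The promoter of Nes is shown for comparison, since Nes was the gene that passed the test. It covers chr3:87970843-87971142 (plus strand, GRCm38.p6, RefSeq).
Nes promoter: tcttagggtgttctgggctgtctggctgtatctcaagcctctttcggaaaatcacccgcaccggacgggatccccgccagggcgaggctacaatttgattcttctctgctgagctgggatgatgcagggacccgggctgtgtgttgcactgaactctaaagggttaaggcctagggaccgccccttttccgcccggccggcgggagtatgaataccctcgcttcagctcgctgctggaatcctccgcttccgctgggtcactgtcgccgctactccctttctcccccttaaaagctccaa
These 300 bases hold no CANNTG and no CTANNNNTAG on either strand, which says only that these letters are not in this window. Promoters were matched for 8 of the 10 genes. Of the other matched genes, Sync, Synm and Ina hold CANNTG, while Vim, Lmna and Prph hold none, and Des alone of the 8 holds CTANNNNTAG.

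Vim (ENSMUSG00000026728, chromosome 2, 13573927 to 13582826, plus strand) encodes vimentin, the general filament of mesenchymal cells and myoblasts. It ran over 660, 787 and 900 CPM in co-cultured C2C12, against 850, 930 and 1178 CPM in C2C12 controls. Co-cultured library 1 lay within the control range and the other 5 co-cultured libraries below every control. The mean was 775 ± 94.4 CPM in co-culture and 983 ± 139 CPM in control (SD, n = 6 each), and the log2 fold change of -0.35 (SE 0.0966, 95% interval -0.55 to -0.15) did not pass (adjusted p = 0.0640 by edgeR). All C2C12 Vim reads were on Vim-201. Summed, the precursor filaments Nes and Vim took 928 ± 78.2 CPM in co-culture and 1251 ± 118 CPM in control, and the muscle filaments Des, Sync and Synm took 1078 ± 190 CPM in co-culture and 823 ± 158 CPM in control.

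**Figure D2:**
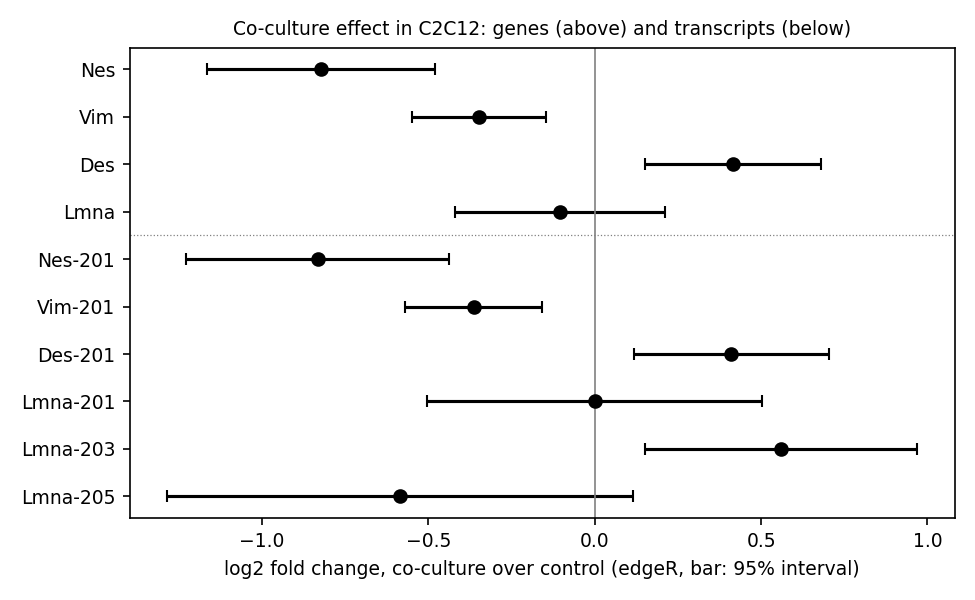
Log2 fold change of co-culture over control in C2C12 for the tested genes (upper 4) and the tested transcripts (lower 6), points with 95% intervals from edgeR. Nes and Nes-201 lie lowest in their parts, at -0.82 and -0.83, and the interval of Lmna crosses 0.

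Ratios of reads within a library do not depend on its depth or scaling. There were 1.13, 1.30 and 1.95 Des reads per Vim read (lowest, median and highest) in co-cultured C2C12, against 0.673, 0.787 and 1.03 in control. Every co-cultured library thus held more Des than Vim reads, and 5 of 6 controls held fewer. Des reads per Nes read were 4.92, 7.15 and 9.92 in co-culture, against 1.68, 3.41 and 4.84 in control. Neither ratio overlaps between the groups. Both were chosen after the levels of these genes were seen and are given without a test. Vim reads per Nes read were 5.30 ± 1.83 in co-culture and 3.85 ± 1.17 in control (SD, n = 6 each), with overlapping groups.

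**Figure D3:**
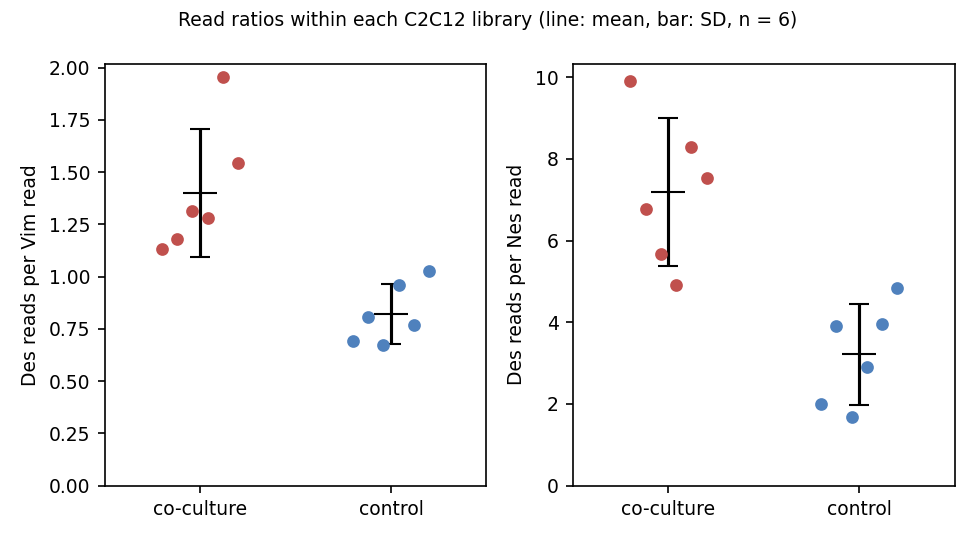
Des reads per Vim read (left) and per Nes read (right) in each C2C12 library, co-culture left and control right in each panel, with line and bar for mean and SD (n = 6). Co-cultured libraries reach 1.95 and 9.92, and no co-cultured library falls below the highest control, at 1.03 and 4.84.

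Levels of different genes are set side by side per kilobase of transcript, although a long-read library may give 1 read per molecule whatever its length. Des averaged 356 ± 63.5, Vim 353 ± 43.1, Lmna 117 ± 27.8 and Nes 25.4 ± 4.57 CPM per kilobase in co-cultured C2C12 (SD, n = 6). In C2C12 controls Vim averaged 448 ± 63.5, Des 267 ± 53.9, Lmna 127 ± 23.6 and Nes 44.3 ± 9.84. Per kilobase, Des and Vim differed by less than their spread in co-culture, but this rests on the division by length: in plain CPM Des (1072 ± 192) stood above Vim (775 ± 94.4) there. The order of the control means was the same on both scales, and the per-kilobase steps down to Lmna and to Nes exceeded it in both groups. Nefl, Sync, Nefm, Prph and Synm each averaged under 10 CPM per kilobase in both groups, and Ina was at 0.

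Lmna (ENSMUSG00000028063, chromosome 3, 88480147 to 88509956, minus strand) encodes lamins A and C, which line the nucleus from a shared gene. It ran over 256, 377 and 460 CPM in co-cultured C2C12, against 294, 391 and 474 CPM in C2C12 controls, and the groups overlap over most of their range. The log2 fold change of -0.10 (SE 0.151, 95% interval -0.42 to 0.21) did not pass (adjusted p = 0.844 by edgeR). Reads fell mainly on Lmna-201 (3156 bases), which codes for lamin A, Lmna-203 (2021 bases), which codes for lamin C, and Lmna-205 (3948 bases), annotated as a transcript that keeps an intron and codes for no protein.

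The coding ends of the lamin transcripts are shown because they tell the forms apart. Both were read from GENCODE M21 transcripts on the minus strand of GRCm38 and end with the stop codon, lamin A over chr3:88482074-88482351, across the last exon junction, and lamin C over chr3:88483297-88483329. Capitals mark, in lamin A, the codons of the prenylation box, by which the precursor is farnesylated and later cut, and in lamin C the 18 bases that lamin A lacks.
Lamin A coding end: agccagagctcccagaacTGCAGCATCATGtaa
Lamin C coding end: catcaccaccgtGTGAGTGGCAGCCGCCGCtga

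Lmna-203 took 32.5, 40.4 and 50.0% of Lmna reads (lowest, median and highest) in co-cultured C2C12, against 19.4, 23.4 and 35.5% in control. Only control 2 lay within the co-cultured range, and the other 5 controls lay below every co-cultured library. Control 2 held 77 Lmna-203 reads and the other controls 9 to 26. This share was not tested, as the test of shares took the most counted transcript, Lmna-205. Its level was 144 ± 36.1 CPM in co-culture and 95.4 ± 20.1 CPM in control (SD, n = 6 each), with a log2 fold change of 0.56 (SE 0.192, 95% interval 0.15 to 0.97) that did not pass among 2586 tested transcripts (adjusted p = 0.246 by edgeR). Of the lamin A and lamin C reads together, lamin C took 67.6 ± 9.69% in co-culture and 57.0 ± 8.14% in control, with overlapping groups.

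Lmna-205 took 15.6, 39.7 and 60.0% of Lmna reads in co-cultured C2C12, against 33.6, 53.7 and 66.7% in control. Co-culture 1 was the lowest of all, and the other libraries of the groups overlap. The means were 39.2 ± 14.5% in co-culture and 53.3 ± 12.2% in control (SD, n = 6 each), a difference of -14.1 percentage points (exact two-sided permutation test, p = 0.0909, 1 of 3 such tests). Of its 3948 bases, 1544 (39.1%) lie in Lmna-201 and 437 (11.1%) in Lmna-203, and how the authors' counting shared reads between such forms is not given, so these shares are those of the deposited counts. The leading transcripts of Des and Nes, the other genes tested in this way, took 99.7% of Des reads in co-culture and 98.8% in control for Des-201 (exact two-sided permutation p = 0.0931), and for Nes-201 the shares given above (p = 0.773, same test). In the transcript fit 10 of 2586 passed (0.387%, of which 8 higher, 0.309%, and 2 lower, 0.0773%), and 0 of 6 transcripts of these genes did. The groups were fully apart for 36 transcripts (1.39%), Nes-201 among them. With DESeq2, Nes-201 and Vim-201 passed (adjusted p = 0.00819 and 0.0438), and without a filter Des-201 did (adjusted p = 0.0220 by edgeR). Nes-201 had a log2 fold change of -0.83 (adjusted p = 0.0791 by edgeR), Vim-201 of -0.36 (0.124), Des-201 of 0.41 (0.241), Lmna-205 of -0.59 (0.588) and Lmna-201 of 0.00 (0.999).

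**Figure D4:**
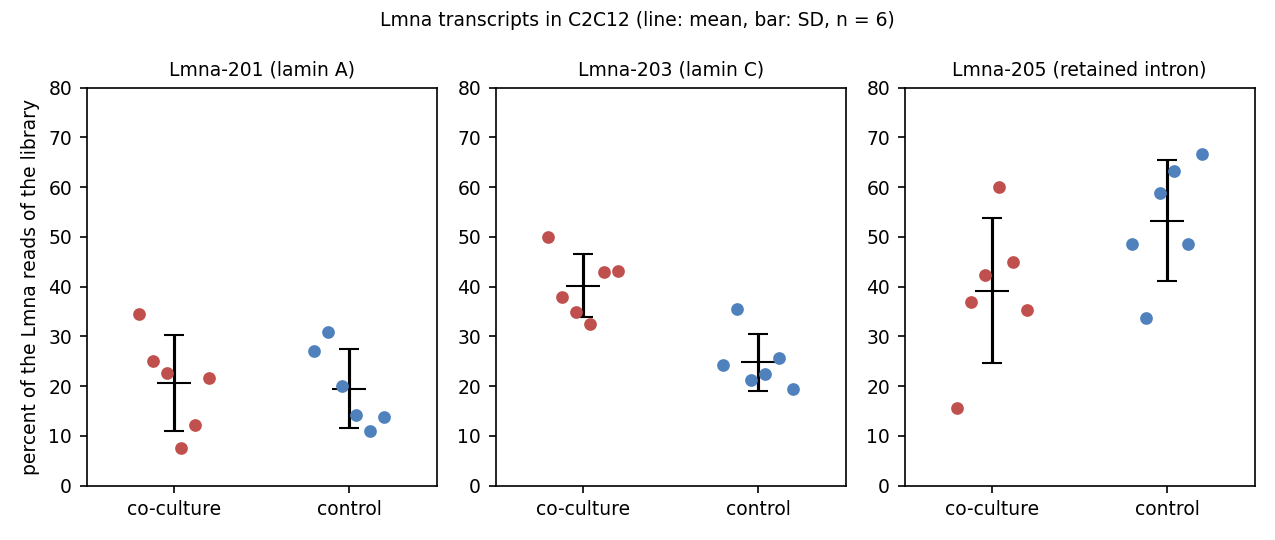
Percent of each C2C12 library's Lmna reads on the lamin A form Lmna-201, the lamin C form Lmna-203 and the intron-keeping Lmna-205, co-culture left and control right in each panel, with line and bar for mean and SD (n = 6). For Lmna-203 the co-cultured libraries lie between 32.5 and 50.0% and the controls between 19.4 and 35.5%.

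Prph (ENSMUSG00000023484, chromosome 15, 99055174 to 99058978, plus strand) encodes peripherin, a filament of motor and sensory neurons. In NSC34 it ran over 264, 344 and 928 CPM in co-culture, against 0, 247 and 649 CPM in control, with reads in all 6 co-cultured libraries and in 4 of 6 controls. Controls 1 and 6 were at 0, and they held 88 and 822 reads in all. The means were 432 ± 247 CPM in co-culture and 265 ± 254 CPM in control (SD, n = 6 each), and the difference of 167 CPM was smaller than the spread (exact two-sided permutation test, p = 0.286, the only such test). Pooled over libraries, 19 of 55007 reads gave 345 CPM in co-culture (95% interval 208 to 539) and 6 of 15858 gave 378 CPM in control (139 to 823), so the pooled values and the means differ in direction.

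Peripherin reads were split between forms that differ by 1 intron. Prph-202 and Prph-204 keep 96 bases that Prph-201 splices out, at chr15:99056937-99057032 (plus strand, GRCm38, GENCODE M21), and these add 32 codons with the frame unchanged. An intron-keeping form of this kind is known for mouse peripherin. In the lines that follow, lower case marks the flanking 12 bases of exon on each side and capitals the intron.
Prph-202 kept intron: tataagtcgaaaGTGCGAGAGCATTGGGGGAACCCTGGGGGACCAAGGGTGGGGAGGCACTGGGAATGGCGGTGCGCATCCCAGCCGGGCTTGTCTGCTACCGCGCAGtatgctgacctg
Prph-201 junction: tataagtcgaaatatgctgacctg
In NSC34, 8 of 19 Prph reads in co-culture and 3 of 6 in control were counted on a form with the intron, or 11 of 25 in all (44.0%, exact 95% interval 24.4 to 65.1). All 11 came from 3 libraries: 6 on Prph-202 in co-culture 2, 2 on Prph-204 in co-culture 3 and 3 on Prph-204 in control 5. Only 1 library held both forms. Prph-202 and Prph-204 differ by 3 coding bases at the start of the last exon.

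The other neuronal filaments were near the limit of detection. Nefl, the light neurofilament subunit on which the others assemble, had 2 reads in co-cultured NSC34 (36.4 CPM, 95% interval 4.40 to 131) and 0 in NSC34 control. Ina, alpha-internexin, had 1 read in co-cultured NSC34 and 0 in control. Nefm, the medium subunit, had 0 in both, which allows up to 42.3 CPM over all NSC34 reads. The deeper C2C12 tables held neurofilament reads as well: Nefl had 15 in co-culture and 10 in control (8.28 CPM, 4.63 to 13.7, and 6.68 CPM, 3.20 to 12.3), present in all 12 libraries, and Nefm had 9 in co-culture and 4 in control. Without a filter their log2 fold changes were 0.35 for Nefl and 0.97 for Nefm (adjusted p = 0.869 and 0.611 by edgeR). Annotated exons of Nefl and Nefm share 1108 bases on opposite strands, but only through the transcript Nefm-202. All C2C12 Nefm reads were counted on Nefm-201, which does not reach Nefl. The overlap thus leaves only the Nefl reads uncertain, as no strand setting is known. The summed neuronal marker list in C2C12 was 192 ± 16.7 CPM in co-culture and 219 ± 32.0 CPM in control (SD, n = 6 each).

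The edgeR fit of co-culture in NSC34 could test 49 genes, none of the 10 among them. It passed 0 genes (0%), 1 had an unadjusted p under 0.05, and DESeq2 also passed 0.

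Prph was the filament gene higher in NSC34, and Des, Vim and Nes were lower there in both conditions. With all 24 libraries in a single edgeR fit on library totals, 5 of the 10 genes were tested (Prph, Des, Nes, Vim and Lmna). The filter could be passed through a single line. Des, Nes, Vim and Lmna had 0, 0, 7 and 2 NSC34 reads and Prph 1 C2C12 read, so each entered through the line where it was high. A difference between the lines was thus favoured in advance, and these calls are no separate support for it. The same limit holds for the list genes in this fit. In the co-cultures all 5 passed, Prph higher in NSC34 (1 gene, where 24.8% of 1328 tested genes were higher) and the other 4 lower (where 26.1% were lower). In the controls Prph was higher (10.1% of tested genes) and Des, Vim and Nes lower (13.3% of tested genes), while Lmna did not pass (adjusted p = 0.0564 by edgeR). Lmna lay close to the threshold and passed in some other settings, with TMM at an adjusted p of 0.00401 by edgeR. In all, 677 of 1328 genes passed in the co-cultures (51%) and 310 in the controls (23.3%), so a difference between the lines was common. Line and library preparation cannot be told apart here.

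**Figure D5:**
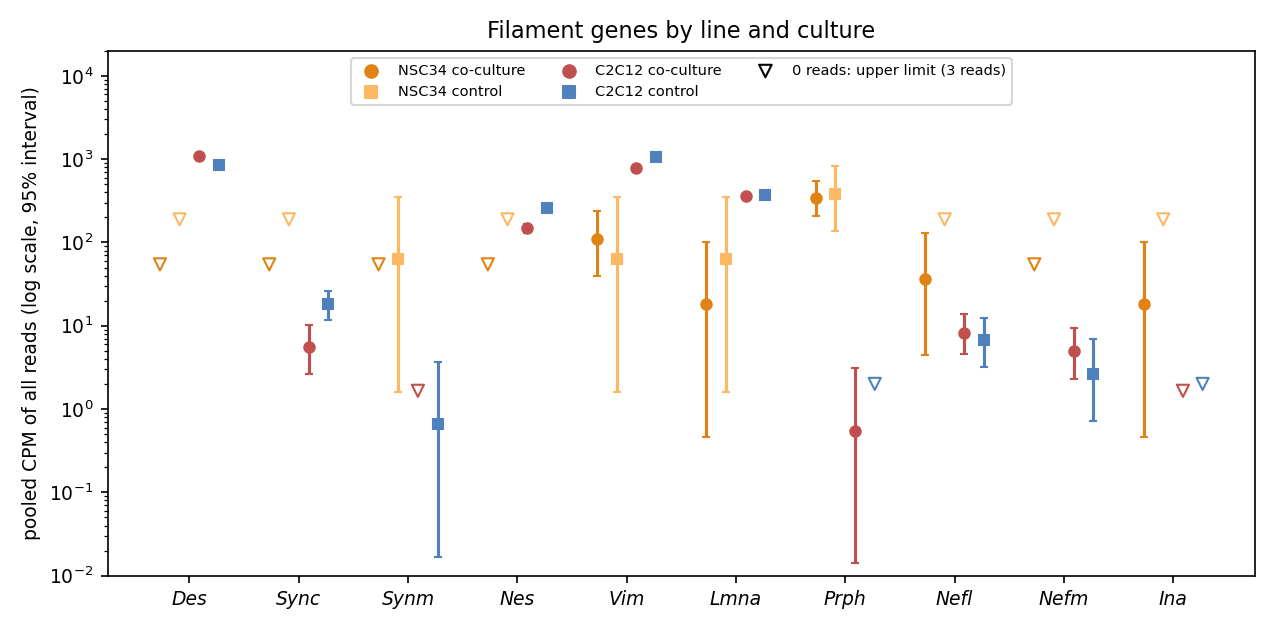
Pooled level of each of the 10 genes in CPM of all reads on a log axis, in the order NSC34 co-culture, NSC34 control, C2C12 co-culture and C2C12 control within each gene, with exact 95% intervals, which cover counting error only. Open triangles give the upper limit for groups with 0 reads. Prph is the gene with NSC34 above C2C12 by more than its intervals, and Des, Vim and Nes lie above the NSC34 values or limits in C2C12.

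Prph was 626-fold higher in co-cultured NSC34 than in co-cultured C2C12 (95% counting interval 99.5 to 26011, adjusted p = 6.62e-12 by edgeR). A single read was found in co-cultured C2C12. Prph was also higher in NSC34 control than in C2C12 control, where there was none (adjusted p = 8.67e-08 by edgeR). The pooled NSC34 control level of 378 CPM was 189-fold the C2C12 control limit of 2.004 CPM. That ratio is no lower bound, as it leaves out the counting error of the NSC34 reads (95% interval 139 to 823 CPM). Without NSC34 co-culture 2, which held 30314 of the 55007 reads, the ratio in co-culture was 807 (117 to 34751). The single C2C12 read puts peripherin at 0.160% of its co-cultured NSC34 level, and the upper 95% bound of that read allows 0.89%.

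Des had 0 reads in every NSC34 library. It was at least 19.9-fold lower in co-cultured NSC34 than in co-cultured C2C12, and at least 4.49-fold lower in NSC34 control than in C2C12 control. Both bounds take 3 reads over the group as the floor and leave out the counting error of the C2C12 reads. Zero reads allow up to 5.03% of the co-cultured C2C12 level. Without NSC34 co-culture 2 the bound was 8.93-fold and the allowance 11.2%. The myoblast list had 19 reads in co-cultured NSC34 and 5 in NSC34 control, on Chrna1, Tnnt1 and Myh3, with Myod1, Myog and Acta1 at 0, and their source was not tested.

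Nes, also at 0 in NSC34, was at least 2.70-fold lower in the co-cultures and at least 1.38-fold lower in the controls. The depth of the NSC34 libraries sets these bounds, which also leave out the counting error of the C2C12 reads. The bound in the co-cultures was 1.21-fold without NSC34 co-culture 2. The call in the controls was lost without any 1 of NSC34 controls 2 to 6, with adjusted p up to 0.118 by edgeR. With 1 library left out, Nes was tested in only 12 of 24 cases in each condition, and was under the filter in the others.

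Vim was found in both lines. With 6 reads in NSC34 it was 7.26-fold higher in C2C12 (3.33 to 19.8) in the co-cultures, and with 1 read 16.7-fold higher in C2C12 (3.00 to 662) in the controls. Lmna had 1 NSC34 read in each condition, and was 19.6-fold higher in C2C12 in the co-cultures (3.51 to 777) and 5.94-fold in the controls (1.06 to 235). Without NSC34 co-culture 2, Lmna was at 0 and at least 2.94-fold lower in NSC34, leaving out the counting error of the C2C12 reads. Nefl was 4.39-fold higher in co-cultured NSC34 than in co-cultured C2C12, an interval of 0.488 to 18.9 that includes no difference.

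The interaction, that is the co-culture effect in NSC34 minus that in C2C12, passed for 0 of 1328 genes (0%), with 105 at an unadjusted p under 0.05 and 2 passing with DESeq2. For Vim it was 1.13 on the log2 scale (SE 1.24, adjusted p = 0.982 by edgeR) and for Prph -0.75 (SE 0.601, adjusted p = 0.931 by edgeR). With 1 library left out, the value ran over 0.71 to 7.36 for Vim, the highest without NSC34 control 5, which held its only control read, and over -1.05 to -0.09 for Prph. For Des and Nes, at 0 in every NSC34 library, this comparison could show nothing, and for Vim and Prph no difference was detectable at this depth.

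Of the tested genes whose proteins build on, anchor or modify the filaments, none passed the threshold in C2C12. Over all tested genes 37 of 2570 passed (1.44%), a share at which lists this short may hold none by chance. Fold changes were above 0 for 1298 of the 2570. Among linkers and chaperones 9 of 23 genes were tested, 0 rose, 0 fell, 3 fold changes were above 0 and the median was -0.29, against 0.00 over all tested genes. Plec (plectin, which cross-links desmin to other structures) had a log2 fold change of -0.61 (adjusted p = 0.0553 by edgeR), Ttn (titin, the giant spring of the sarcomere) of -0.64 (0.104) and Macf1 (a linker of microtubules and actin) of -0.56 (0.161). For transport and neuronal cytoskeleton 6 of 15 were tested, 0 rose, 0 fell, none was above 0 and the median was -0.32. The smallest p belonged to Dpysl3 (-0.58, adjusted p = 0.129 by edgeR), Map1b (-0.56, 0.176), both proteins of growing neurites, and Kif5b (-0.38, 0.521), a kinesin.

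Lamin processing and nuclear envelope genes gave 6 tested of 21, 0 risen, 0 fallen, 5 above 0 and a median of 0.05. Sun1, which couples the lamina to the cytoskeleton, had a log2 fold change of 0.28 (adjusted p = 0.728 by edgeR), Lmnb2 (lamin B2) of 0.19 (0.867) and Emd (emerin) of -0.12 (0.937). Of the kinases and phosphatases that act on filaments 3 of 16 were tested, with 0 risen, 0 fallen, 1 above 0 and a median of -0.29: Gsk3b had -0.36 (adjusted p = 0.673 by edgeR), Rock2 -0.29 (0.681) and Prkaca 0.03 (0.984). Of 14 filament relatives Lmnb2 alone was tested, and Nefh (the heavy neurofilament subunit), Gfap, Krt8, Krt18, Krt5 and Bfsp1 had 0 C2C12 reads.

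In the fit of the lines, 4 of the 5 tested linkers and chaperones passed in both conditions, all lower in NSC34: Cryab and Hspb1 (small heat shock proteins that guard desmin), Ttn and Plec. Over all tested genes 26.1% were lower in NSC34 in the co-cultures and 13.3% in the controls, while 24.8% and 10.1% were higher. Nefh, Map2, Stmn2 and Fez1 of the transport and neuronal cytoskeleton list had 0 NSC34 reads. Of 4 tested transport and neuronal cytoskeleton genes, Uchl1, an abundant neuronal ubiquitin hydrolase, was higher in NSC34 by 6.79 in the co-cultures and 6.70 in the controls on the log2 scale (adjusted p = 2.37e-17 and 6.93e-10 by edgeR). Tubb3, the neuronal beta-tubulin, was higher by 2.87 in the co-cultures and 2.33 in the controls (adjusted p = 1.94e-07 and 0.0288 by edgeR). Dynll1, a dynein light chain, was lower in both conditions, and Map1b was higher in the co-cultures by 1.73 (adjusted p = 0.00203 by edgeR). Of the kinases Cdk1, which phosphorylates lamins at mitosis, was higher in the co-cultures by 3.45 (adjusted p = 2.06e-08 by edgeR), and none of the 3 tested nuclear envelope genes passed in either condition.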

How the data were processed

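The deposited values are raw counts of reads per Ensembl transcript, 1 table per line, made by the authors from Nanopore MinION reads of Trizol-extracted RNA, per the labels' protocols. The genome build is GRCm38, per the submitters' processing notes. The aligner, the counter, its strand handling and the annotation release were not given in the sources used here. Each of the 24 columns matched 1 sample by name, and 0 were unmatched. Transcripts were looked up in GENCODE M21 without their version and summed per gene. Of 37677 C2C12 transcripts 262 had no match (0.224% of reads) and were kept as features of their own.

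Each line was fitted with edgeR 4.0.16 in R 4.3.3 (filterByExpr, TMM, quasi-likelihood F test, Benjamini-Hochberg, threshold 0.05). Levels are CPM of all reads. The lines were compared in 1 fit of all 24 libraries on library totals, because TMM rests on few genes in the shallowest. Shares and the NSC34 level of Prph were compared by exact permutation over all splits. Intervals of log2 fold changes come from the edgeR fit and take in the spread between libraries. All other intervals rest on exact Clopper-Pearson intervals at 95%, with a limit of 3 reads for 0 reads. These other intervals and the limit speak of counting error alone, as molecules were not tagged with identifiers. Where nothing says that replicates were separate cultures, p-values measure the spread between these libraries, which may be technical. The C2C12 gene and transcript fits, the NSC34 fit and the line contrast in controls were run on simulated counts with known changes. For C2C12 genes, 42 of 61 tested changes were recovered at 1.5-fold and 60 of 62 at 2-fold. For the lines, 6 of 56 were recovered at 2-fold and 27 of 59 at 4-fold. That simulation gave both lines the same means, so genes at 0 in a single line were not covered. In NSC34 at most 3 changed genes per fold could be tested. Alternatives used DESeq2 1.42.0 and limma 3.58.1.

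The members, gene lists and tests were chosen with earlier results of these data known. All 10 genes are named, with every list gene past the threshold and up to 3 of smallest p per list, and the 3 tested genes whose C2C12 pattern is most like each of Nes, Des, Vim and Lmna. Myog and Tnnt1 come from the marker list. Line levels without NSC34 co-culture 2 and the read ratios were added after seeing the data.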

Additional observations from a re-analysis of the deposited data

Results flagged for a closer look

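Peripherin in NSC34 co-culture 1 stood apart from the other 5 co-cultured libraries. Its level was 928 CPM, against 264 to 400 CPM in the others, and the gap to the nearest of them was 0.796 of the whole range. The library's value rests on 4 reads. The rule took levels and transcript shares with at least 20 reads, and this group, with 19 reads, was added outside it. Among 31 groups of 6 libraries examined, read ratios included, this was the only one. Chance alone gives about 1 in 20 per group, so a single flag may arise by chance. Without this library the mean of co-culture minus control was 68.0 CPM, against 167 CPM with it.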

How the results depend on the processing

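The fall of Nes kept its direction and its side of the threshold in 10 other settings (log2 -0.64 to -0.85, adjusted p 0.00193 to 0.0469) and in 10 of 12 cases with a library left out (-0.71 to -0.89). As genes, Vim and Lmna passed in none of these, and Des passed only without a filter. The C2C12 count of 37 (21 higher, 16 lower) was 58 with library totals (23 higher, 35 lower), 106 without a filter, 24 with the replicate block and length trend together, and 11 to 74 with a library left out. The NSC34 count of 0 was 7 with at least 10 reads in total and 0 to 1 with a library left out. The transcript count of 10 was 126 without a filter, 35 with DESeq2, 1 with the replicate block and 5 to 15 with a library left out. Lmna-201 turned to 0.0077 with RLE factors, 0.093 without a filter, 0.018 with DESeq2 and ran over -0.087 to 0.17 with a library left out. Between the lines, the control count of 310 was 538 (77 higher, 461 lower) with TMM, 544 (76 and 468) with TMMwsp, where the median over tested genes was -0.95 with TMM against -0.16, 33 with the replicate block and 186 to 313 with a library left out. The co-culture count of 677 was 1089 without a filter, 77 with the block and 433 to 881 with a library left out. Prph passed in all 7 settings of both. With the block Des, Vim and Nes lost their calls in both conditions and Lmna in the co-cultures (adjusted p 0.124 to 0.950). In the controls Nes also lost its call without a filter (0.113), with 10 reads in total (0.121) and without shallow libraries (0.0577), and Lmna passed with TMM, TMMwsp and DESeq2 (down to 0.00325) and in 9 of 24 cases with a library left out (down to 0.0370). The interaction count of 0 was 2 with DESeq2, where Prph turned to 0.23. With a library left out, differences in share ran over 0.695 to 1.13 points for Des-201, -18.2 to -9.32 for Lmna-205 and -0.36 to 1.10 for Nes-201, and that of NSC34 Prph over 68.0 to 244 CPM. The cause of these moves was not tested. Replicate numbers did not pair the libraries: same-numbered deviations correlated at -0.054 to 0.105 in C2C12 and -0.232 to 0.325 in NSC34, and 2 of 6 numbers in C2C12 and 1 of 6 in NSC34 correlated best with themselves. Nes passed with the block (-0.78, adjusted p 0.0385). No C2C12 library was under 0.5 of its median depth, so leaving shallow ones out was not run there. NSC34 depth limits all its values.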

Other observations

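Across the 12 C2C12 libraries, the genes whose levels followed each filament gene most closely were found by Pearson's r of log2 CPM among the tested genes. The libraries share the co-culture contrast and differ in depth, so the values are a description. For Nes they were Gm20594 (r = 0.92), Gm10718 (0.91) and Col5a2 (0.89), a fibrillar collagen chain. Des was closest to Mxra8 (0.87), Cnn3 (0.84), an actin-binding calponin, and Hspb1 (0.83), the small heat shock protein listed above among the chaperones. Vim was closest to Cdk4 (0.84), a kinase of cell cycle entry, Dut (0.81), which clears dUTP, and Tmem167 (0.80). Lmna was closest to Rpl7a (0.93), Creb3l1 (0.92) and Smg5 (0.90). Between the filament genes themselves, r was -0.73 for Nes and Des, 0.35 for Nes and Vim, and -0.31 for Des and Vim.

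Keratins and B-type lamins had C2C12 reads although few reached the filter. Lmnb2 had 186 reads in co-culture and 125 in control, and Krt80 had 87 in co-culture and 48 in control. Krt10 had 58 in co-culture and 38 in control, and Lmnb1 had 17 in co-culture and 12 in control. Minor forms found in a single C2C12 library were Lmna-202, with all 15 reads in control 5, and Nes-203, with all 6 in control 2.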
